A study of Mus musculus with 9 samples.

Results

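Mouse adenylyl cyclases, cyclic nucleotide phosphodiesterases and the proteins that respond to cAMP were compared between sorted pancreatic islet cells. The set was chosen by gene symbol alone and held 45 of the 22028 protein-coding genes among the 55536 genes measured. It covered 10 adenylyl cyclases, 21 phosphodiesterases, the PDE6 delta subunit, 4 regulatory and 2 catalytic subunits of protein kinase A (PKA), 3 PKA inhibitors, 2 Epac proteins and 2 Popeye proteins. No measured value entered the rule on symbols, but the members were chosen with earlier results of these data known.

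RNA was measured in 9 libraries of C57B/L6 mice that were 12 weeks old. Islets of all groups were picked by hand, kept in culture overnight, dispersed and sorted by FACS for CD24 and CD71, the transferrin receptor. The beta-enriched subset was sorted as CD24low CD71+, the alpha-enriched subset as CD24low CD71- and the delta-enriched subset as CD24high, with 3 libraries each. The subsets are enriched by surface markers and are not pure cell types, and the labels do not say whether the libraries of a subset came from separate mice, so the p-values below measure the spread between these libraries, which may be technical.

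Cyclic AMP is made from ATP by adenylyl cyclases, which the G protein alpha subunit Gs stimulates and Gi inhibits. Phosphodiesterases (PDEs) break it down, some acting on cAMP, some on cGMP and some on both. In islet cells cAMP is known to amplify hormone secretion through PKA, whose regulatory subunits release the catalytic subunits when they bind cAMP, and through the Epac exchange factors for Rap.

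The markers of the cell type that names each subset were highest in that subset. All 12 alpha markers were lower in beta than in alpha and higher in alpha than in delta, all 12 beta markers were higher in beta than in alpha and in delta, and all 7 delta markers were lower in beta and in alpha than in delta. The glucagon gene Gcg ran from 300.2 to 549.7 CPM in beta, from 78112 to 96574 CPM in alpha and from 1930 to 6003 CPM in delta. The insulin gene Ins2 ran from 21226 to 28401 CPM in beta, from 2027 to 2772 CPM in alpha and from 65.3 to 390.1 CPM in delta. CPM here is the expected count of a gene relative to the size of its library, with TMM normalisation, which sets libraries of different composition on a common scale. A log2 difference is the log2 of a fold change, and SE is its standard error. Libraries held 5663141 to 9529920 expected counts, of which members took 0.175% to 0.284%. A locus of ribosomal RNA took 34.4% of the counts of beta 2 and 3.15% to 5.37% elsewhere. The summed level of 11 matched acinar markers, as CPM of the whole library, was 21.7 to 39.9 in beta, 60.5 to 405 in alpha, with 119 to 2966 in delta, with the highest values in alpha 1 and delta 3. The 4 markers of PP cells, which make pancreatic polypeptide, were all lower in beta than in alpha and in delta. They summed to 129 to 240.0 in beta, 3139 to 4114 in alpha, with 5192 to 7745 in delta, on the same scale, and 5 Schwann cell markers summed to 6.04 to 9.32 in beta, 10.8 to 16.8 in alpha, with 17.4 to 32.8 in delta. On that scale 7 duct markers summed to 253 to 383 in beta, 592 to 843 in alpha, with 222 to 392 in delta. The 6 mesenchymal markers summed to 0.944 to 1.51 in beta, 12.5 to 46.3 in alpha, with 3.76 to 10.4 in delta. The part of PP, Schwann, acinar, duct and mesenchymal cells in the differences of members below was not tested.

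Of the 45 members, 34 passed the filter on low counts. Between beta and alpha, 16 members were higher in beta and 7 were lower, 67.6% of the 34, while 26.6% of all 15896 tested genes were called (14.8% higher and 11.9% lower). Between beta and delta, 10 were higher in beta and 11 were lower, 61.8% of the 34, against 30.6% of all genes (15.4% higher and 15.3% lower). Between alpha and delta, 6 were higher in alpha and 11 were lower, 50% of the 34, against 24.3% of all genes (11% higher and 13.3% lower). The comparisons share libraries and are not independent. Calls are at an adjusted p under 0.05 in edgeR's quasi-likelihood test, adjusted over all tested genes, and every adjusted p below is from that test unless another is named. The CPM ranges of the 3 libraries did not overlap for 24, 22 and 17 members in these comparisons, where the same held for 45.5%, 42.6% and 36.1% of all genes. The median size of the log2 difference over the 34 members was 0.70, 0.60 and 0.63, against 0.37, 0.42 and 0.37 over all tested genes. The 11 members that did not pass the filter are described at the end. Because the RNA is of many cells, fewer cells of a type and less RNA per cell cannot be told apart in any of these differences.

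**Figure D1:**
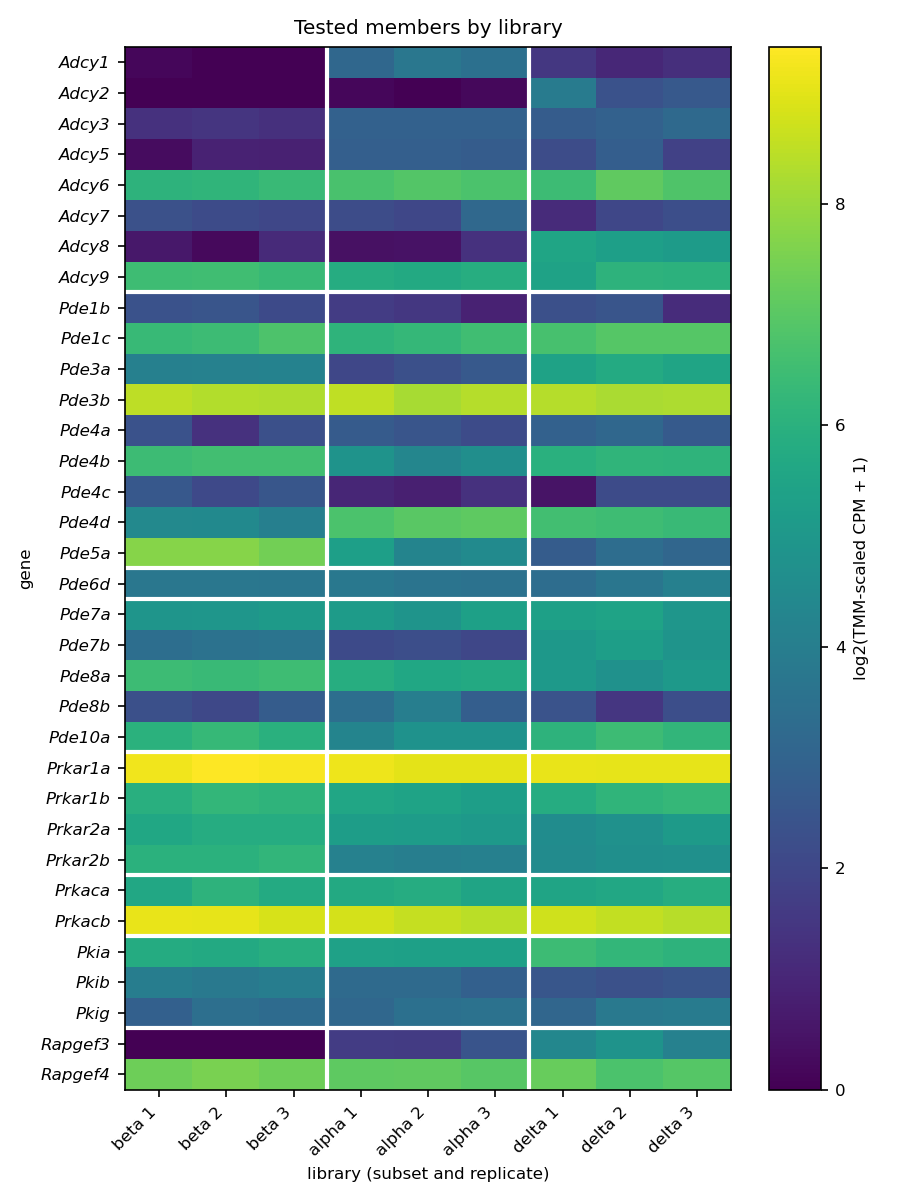
Level of the 34 tested members in each of the 9 libraries, as log2 of TMM-scaled CPM plus 1, with beta, alpha and delta libraries from left to right and white lines between gene families. Adcy8, Rapgef3 and Pde7b are brightest in the delta libraries, Pde5a and Prkar2b in the beta libraries, and Pde3b is bright in all 9.

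Requiring a member to stand above, or below, both other subsets by 2-fold or more selected 13 of the 34 members, 38.2%, where 13.9% of all tested genes met the same rule. Pde5a and Prkar2b were highest in beta, Adcy1 was highest in alpha, and Adcy2, Adcy8, Pde3a, Pde7b and Rapgef3 were highest in delta. Adcy1, Adcy3, Adcy5, Pde4d and Rapgef3 were lowest in beta, Pde3a, Pde4b, Pde7b and Pde10a were lowest in alpha, and Pde5a was lowest in delta. Over all tested genes, 2.76%, 1.83% and 3.89% were highest in beta, alpha and delta, and 3.9%, 2.32% and 1.75% were lowest. This rule used the larger of the p-values against the other subsets, adjusted over all genes. Counts in beta, alpha and delta were 12, 17 and 859 for Adcy8, 0, 2 and 171 for Adcy2 and 1, 239 and 32 for Adcy1. These members could pass the filter on low counts only through the subset where they were highest. Their place there thus partly follows from the filter, which was the same for all tested genes.

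**Figure D2:**
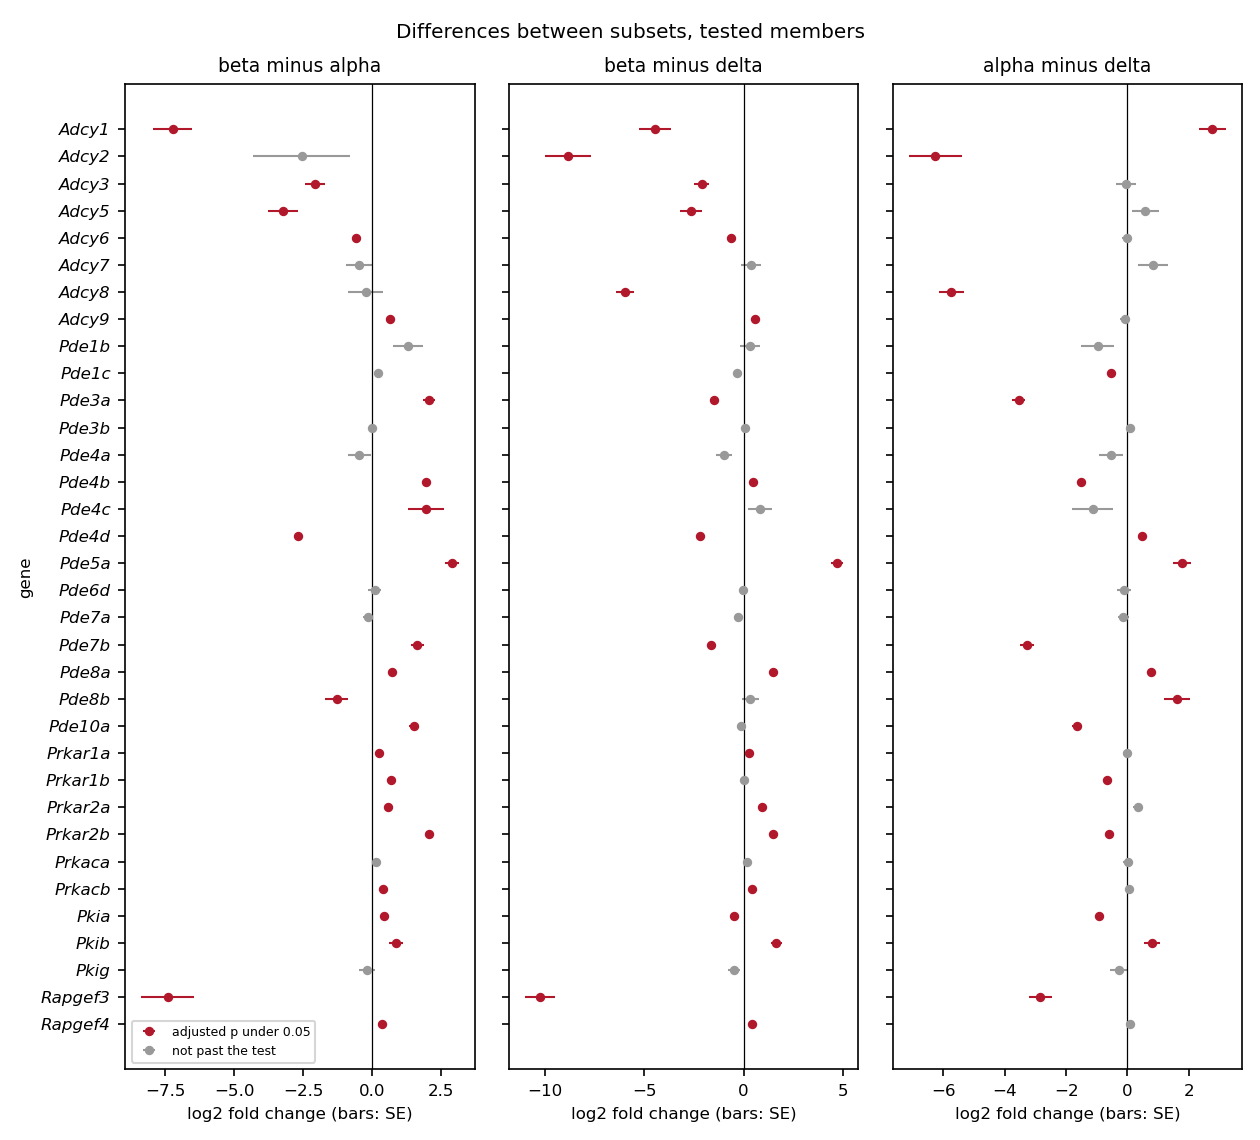
Log2 difference of each tested member in the 3 comparisons, with bars of 1 standard error and red points for an adjusted p under 0.05. Points left of the line are lower in the first-named subset. Bars of Adcy1, Adcy2 and Rapgef3 rest on few or no counts in beta, where the fitted size is no bound.

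The sequence before the start of 3 of these genes is shown for 1 member highest in each subset, because the table of promoters from RefSeq, build GRCm38.p6, held them with bases outside the annotated gene. Capitals would mark TGACG, the core of the cAMP response element (CRE), TGACGTCA, to which CREB binds. None of the 3 windows held it on either strand. The beta window is Prkar2b, chr12:32061297-32061527 on the minus strand, the alpha window is Adcy1, chr11:7063183-7063432 on the plus strand, and the delta window is Adcy2, chr13:68999542-68999791 on the minus strand.
Prkar2b: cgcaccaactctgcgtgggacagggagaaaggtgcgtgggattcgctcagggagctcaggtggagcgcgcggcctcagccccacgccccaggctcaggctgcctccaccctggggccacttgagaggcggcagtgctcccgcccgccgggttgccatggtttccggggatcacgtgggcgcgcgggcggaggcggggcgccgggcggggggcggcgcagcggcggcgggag
Adcy1: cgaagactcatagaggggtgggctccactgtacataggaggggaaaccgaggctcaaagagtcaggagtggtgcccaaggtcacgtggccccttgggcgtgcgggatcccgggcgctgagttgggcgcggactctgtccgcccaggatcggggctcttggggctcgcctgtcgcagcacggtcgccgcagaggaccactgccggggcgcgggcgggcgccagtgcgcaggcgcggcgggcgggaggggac
Adcy2: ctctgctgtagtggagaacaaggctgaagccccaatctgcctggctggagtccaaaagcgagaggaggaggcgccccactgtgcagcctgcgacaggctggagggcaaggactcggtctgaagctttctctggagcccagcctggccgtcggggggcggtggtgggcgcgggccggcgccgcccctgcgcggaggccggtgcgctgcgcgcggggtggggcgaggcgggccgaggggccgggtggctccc
Their G and C content was 75.8%, 71.2% and 73.2%, above the upper quartile of 61.2% over the upstream part of all 32841 promoter windows, whose median was 52.4%. Of the 45 members, 35 matched the RefSeq table with 75 windows of 300 bases. The full CRE stood in 2 of the 75, or 2.67%, against 1.79% of all windows, and TGACG on either strand, which every full CRE contains, stood in 22.7% against 20.8%. The annotated Prkar1a gene starts at chr11:109649405. Both windows with a CRE belonged to Prkar1a and held the same site, which lies inside that gene and after the RefSeq start of the other window. It is at chr11:109650889-109650918 on the plus strand, with the CRE in capitals and its first base 49 bases before 1 of the RefSeq starts.
Prkar1a: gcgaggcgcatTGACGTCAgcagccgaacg
These counts describe letters in windows and were not tested.

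Adcy6 and Adcy9 were the leading adenylyl cyclases in all 3 subsets, and both differed between beta and the other subsets. The called differences of over 2-fold were all in less abundant isoforms. In beta, 4 of the 8 tested cyclases were lower and 1 was higher than in alpha, and 6 were lower and 1 was higher than in delta. Between alpha and delta, 1 cyclase was higher and 2 were lower in alpha. The calls are 62.5%, 87.5% and 37.5% of the 8, against 26.6%, 30.6% and 24.3% of all genes. Among the 8 are Adcy1, Adcy2 and Adcy8, which passed the filter through the subset where they were highest. The median log2 difference of the 8 was -1.33 for beta minus alpha, -2.39 for beta minus delta and -0.04 for alpha minus delta. The medians over all genes were -0.02, -0.02 and -0.01. As a sum, cyclase RNA was 162 to 169 CPM in beta, 185 to 199.8 CPM in alpha and 201 to 264 CPM in delta. Summed TPM was 19.1 to 25.2 in beta, 19.4 to 36.7 in alpha, with 25.4 to 39.0 in delta, and alpha overlapped both of the others.

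Adcy6, a cyclase inhibited by calcium, was the most abundant per length in every subset, but in beta the lead over Adcy9 was not clear. In beta 3 Adcy6 took 47.4% and Adcy9 47.3% of cyclase TPM. The gene length behind the Adcy6 TPM ran from 2482 to 4658 bases in beta and from 2034 to 4953 bases in delta. By expected counts, Adcy9 averaged 52.1% of the cyclases in beta and Adcy6 43.9%. Adcy6 had 66.4, 70.8 and 82.0 CPM in the beta libraries, 104, 119 and 108 CPM in alpha and 87.5, 137 and 112 CPM in delta. All beta libraries were below all others, while alpha and delta overlapped. The level was 1.51-fold lower in beta than in alpha (log2 difference -0.60, SE 0.14, adjusted p = 0.00409) and 1.54-fold lower than in delta (-0.62, SE 0.14, adjusted p = 0.00269). With an offset for the effective length of the gene in each library these adjusted p-values were 0.318 and 0.0812, with the same direction. Adcy9, which differs from the other membrane cyclases in its weak response to forskolin, ran the other way, from 80.2 to 90.8 CPM in beta, 51.8 to 57.3 CPM in alpha and 42.2 to 67.3 CPM in delta. It was 1.58-fold and 1.49-fold higher in beta than in alpha and in delta (adjusted p = 0.00272 and 0.00652). Without beta 2, delta 3 and alpha 1 together, the adjusted p-values of Adcy6 were 0.0717 and 0.0619 and those of Adcy9 were 0.0677 and 0.0617. In TPM, a level per length, Adcy9 took 39.8% to 47.3% of all cyclase RNA in beta, 21.8% to 30.6% in alpha, with 13.7% to 30.3% in delta, so the beta range overlapped neither other. Adcy6 took 47.4% to 56.4% in beta, 56.5% to 70.0% in alpha, with 47.2% to 66.6% in delta.

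Adcy8, a cyclase stimulated by calcium and calmodulin, was high in delta. Adcy8, at chr15:64697084-64922296 in GRCm38, had 0.514, 0.171 and 1.16 CPM in the beta libraries, 0.342, 0.378 and 1.55 CPM in alpha and 45.1, 38.6 and 35.2 CPM in delta. The delta libraries lay far above the rest, and beta and alpha overlapped. The level was 63.1-fold lower in beta (log2 difference -5.98, SE 0.44, adjusted p = 1.51e-08) and 53.6-fold lower in alpha (-5.74, SE 0.42, adjusted p = 1.83e-08) than in delta. Adcy8 took 8.54% to 12.9% of cyclase TPM in delta and 0.104% to 0.599% in the other libraries. These calls were kept in all 21 other ways of processing that were tried.

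Adcy2, a cyclase known from brain, had 0 counts in beta, 2 in alpha and 171 in delta, summed over 3 libraries each. Delta was thus at least 51.7-fold above beta, counting beta at 3 counts over the subset, and stood above alpha by a ratio of 93.7 (95% exact interval 25.6 to 780.1, for counting error only). Of its delta libraries, delta 1 stood highest at 14.1 CPM, with 4.23 and 5.14 CPM in the others. Adcy1, a calcium-stimulated cyclase first known from brain, had 1 count in beta, 239 in alpha and 32 in delta. The ratio of alpha to beta was 198 (95% exact interval 35.1 to 7837), and alpha was 6.83-fold above delta (log2 difference 2.77, SE 0.45, adjusted p = 0.000158). Adcy1 ran from 7.86 to 12.3 CPM in alpha and from 1.06 to 1.91 CPM in delta, and the delta libraries also carried Gcg as given above, a marker of alpha cells. The part of alpha RNA in the delta value of Adcy1 was not tested.

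Adcy3, the cyclase of olfactory and primary cilia, had 1.54, 1.71 and 1.49 CPM in the beta libraries, 6.61, 6.67 and 6.63 CPM in alpha and 5.6, 6.65 and 8.35 CPM in delta. No beta library reached any of the others in CPM. Adcy3 was 4.17-fold lower in beta than in alpha (log2 difference -2.06, SE 0.37, adjusted p = 0.000329, or 0.0831 with the length offset) and 4.32-fold lower than in delta (-2.11, SE 0.37, adjusted p = 0.00023). In TPM, beta 3 at 0.74 stood above alpha 2 at 0.71 and delta 1 at 0.59. With limma on log2(TPM + 1), the adjusted p-values of Adcy3 were 0.311 against alpha and 0.0653 against delta. Adcy5, known from striatum and heart, was at 0.257 to 0.857 CPM in beta, 5.64 to 6.27 CPM in alpha and 2.57 to 6.05 CPM in delta. Adcy5 was lower in beta than in alpha (log2 difference -3.24, adjusted p = 0.000183) and than in delta (-2.66, adjusted p = 0.00107). Adcy7 ran from 1.23 to 8.04 CPM over the 9 libraries and passed no test, with adjusted p-values of 0.256 to 0.633.

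**Figure D3:**
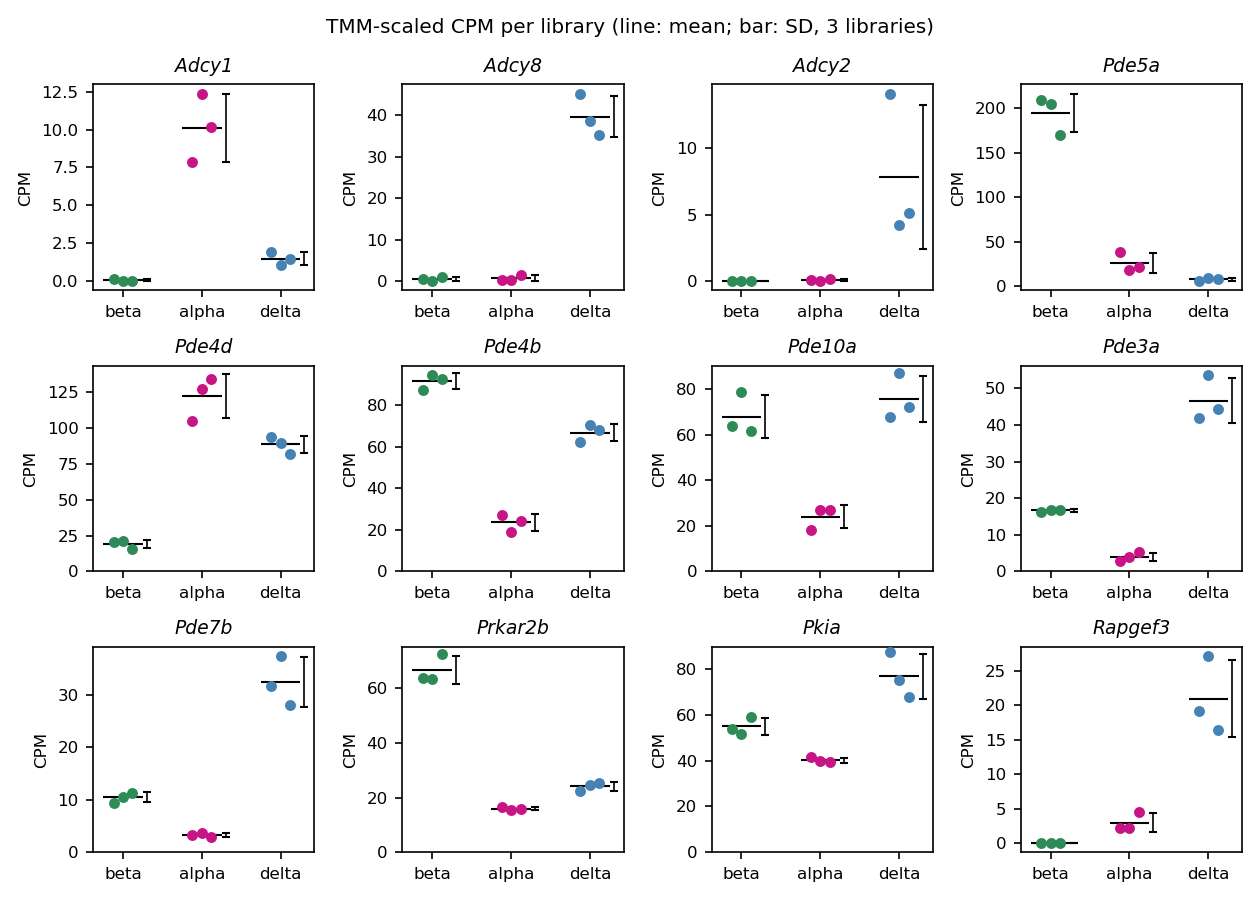
TMM-scaled CPM of 12 members in each library, with a line at the mean of 3 libraries and a bar of 1 SD beside it, for beta, alpha and delta from left to right; each panel has its own linear axis. Adcy8 stands at 35.2 to 45.1 CPM in delta, Pde5a at 170.0 to 208.8 CPM in beta, and Pde4d at 15.8 to 20.9 CPM in beta below all other libraries.

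Phosphodiesterase RNA was summed to 929 to 974 CPM in beta, 669 to 746 CPM in alpha and 808 to 859 CPM in delta, ranges that did not overlap. Summed TPM was 91.4 to 136 in beta, 91.2 to 146 in alpha, with 93.9 to 138 in delta, ranges that overlapped in all pairs. Of the 14 tested PDEs, 7 were higher and 2 lower in beta than in alpha, 3 were higher and 3 lower in beta than in delta, and 4 were higher and 5 lower in alpha than in delta. These are 64.3%, 42.9% and 64.3% of the 14, against 26.6%, 30.6% and 24.3% of all genes. The median log2 differences of the 14 PDEs were 1.0, -0.04 and -0.54. PDE3B, which hydrolyses both nucleotides and is inhibited by cGMP, led in every library. Pde3b had 351, 319 and 312 CPM in the beta libraries, 365, 290.0 and 331 CPM in alpha and 329.8, 298 and 301 CPM in delta. The ranges overlapped in all pairs, and the log2 differences of -0.01, 0.08 and 0.09 (SE 0.10 each) did not pass the test. Pde3b took 30.8% to 39.5% of the summed PDE TPM, with alpha at 36.3% to 39.5%.

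Pde5a, a cGMP-specific PDE and the target of sildenafil, was the phosphodiesterase that marked beta. Pde5a, at chr3:122728947-122859374, had 208.8, 205.3 and 170.0 CPM in the beta libraries, 38.8, 17.9 and 21.9 CPM in alpha and 5.74, 9.37 and 7.71 CPM in delta. The 3 subsets did not overlap. Pde5a was 7.39-fold higher in beta than in alpha (log2 difference 2.89, SE 0.26, adjusted p = 1.04e-05) and 25.6-fold higher than in delta (4.68, SE 0.30, adjusted p = 5.10e-07). Alpha was 3.47-fold above delta (1.79, SE 0.30, adjusted p = 0.00114), but with the length offset that log2 difference was 0.68 (adjusted p = 0.307) and for beta minus delta it was 3.56 (adjusted p = 0.000101). The alpha libraries carried Ins2 at the levels given above, and the part of beta RNA in the alpha value of Pde5a was not tested. PDEs that act on cGMP alone, counting 5 genes, held 12.1% to 15.2% of PDE TPM in beta, 2.16% to 3.41% in alpha, with 0.874% to 2.38% in delta. Those that act on cAMP alone, counting 8 genes, held 34.2% to 38.1% in beta, 45.8% to 48.0% in alpha, with 40.1% to 43.1% in delta, ranges that did not overlap.

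The PDE4 family, which is specific for cAMP and is the target of rolipram, was split between beta and alpha. Pde4d had 20.4, 20.9 and 15.8 CPM in the beta libraries, 105, 127 and 135 CPM in alpha and 94.1, 89.8 and 82.0 CPM in delta. All beta libraries lay well below the rest. Pde4d was 6.41-fold lower in beta than in alpha (log2 difference -2.68, SE 0.14, adjusted p = 1.83e-10) and 4.64-fold lower than in delta (-2.21, SE 0.14, adjusted p = 1.59e-09). It was 1.38-fold higher in alpha than in delta (adjusted p = 0.0112), a call lost without alpha 3 or without delta 3 (adjusted p of 0.0506 to 0.069).

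Pde4b ran in the other direction between beta and alpha, with 87.3, 94.6 and 92.4 CPM in the beta libraries, 27.3, 19.0 and 24.3 CPM in alpha and 62.0, 70.3 and 68.0 CPM in delta. The alpha libraries were the low ones and no ranges overlapped. Pde4b was 3.88-fold higher in beta than in alpha (log2 difference 1.96, SE 0.14, adjusted p = 7.19e-09) and 2.83-fold lower in alpha than in delta (-1.50, SE 0.14, adjusted p = 2.30e-07). Its 1.37-fold higher level in beta than in delta (adjusted p = 0.0121) was lost without beta 2 (adjusted p = 0.0639). Pde4d held 3.57% to 4.82% of PDE TPM in beta, 24.9% to 30.2% in alpha, with 14.8% to 17.7% in delta, and Pde4b held 11.5% to 12.8% in beta, 2.6% to 3.61% in alpha, with 7.42% to 10.3% in delta. Pde4c, at 3.26 to 5.01 CPM in beta and 0.756 to 1.55 CPM in alpha, stood higher in beta than in alpha (log2 difference 1.97, adjusted p = 0.033), but the call was lost when any of beta 1, beta 2, beta 3, alpha 1 or alpha 2 was left out (adjusted p of 0.0548 to 0.117). Pde4a, at 1.54 to 7.86 CPM, passed no test.

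3 PDEs were lowest in alpha along with Pde4b. Pde10a, a dual PDE best known from striatum, had 63.7, 78.7 and 61.6 CPM in the beta libraries, 18.1, 27.1 and 26.8 CPM in alpha and 67.6, 86.9 and 72.2 CPM in delta. Alpha lay apart, and beta and delta overlapped. It was 2.84-fold higher in beta than in alpha (log2 difference 1.50, SE 0.16, adjusted p = 1.88e-06) and 3.16-fold lower in alpha than in delta (-1.66, SE 0.16, adjusted p = 6.86e-07).

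Pde3a, the partner isoform of Pde3b that is known from heart, had 16.3, 16.8 and 16.8 CPM in the beta libraries, 2.96, 3.90 and 5.22 CPM in alpha and 41.8, 53.7 and 44.5 CPM in delta. The order delta, beta, alpha held without overlap. It was 4.16-fold higher in beta than in alpha (log2 difference 2.06, SE 0.22, adjusted p = 1.31e-06), 2.80-fold lower in beta than in delta (-1.49, SE 0.19, adjusted p = 9.42e-06) and 11.6-fold lower in alpha than in delta (-3.54, SE 0.22, adjusted p = 1.79e-09). Per length it remained minor, at 1.46% to 1.76% of PDE TPM in delta.

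Pde7b, a cAMP-specific PDE, followed the same order, with 9.50, 10.6 and 11.4 CPM in the beta libraries, 3.30, 3.78 and 2.96 CPM in alpha and 31.7, 37.5 and 28.0 CPM in delta. No ranges overlapped. It was 3.11-fold higher in beta than in alpha (log2 difference 1.64, SE 0.23, adjusted p = 3.24e-05), 3.08-fold lower in beta than in delta (-1.63, SE 0.20, adjusted p = 7.64e-06) and 9.61-fold lower in alpha than in delta (-3.26, SE 0.23, adjusted p = 8.33e-09). Its close relative Pde7a, at 28.3 to 42.5 CPM, passed no test on counts. With the length offset, Pde7a was lower in beta than in delta (log2 difference -1.06, adjusted p = 0.0224).

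The PDE8 enzymes are cAMP-specific and insensitive to the general inhibitor IBMX. Pde8a had 87.7, 82.8 and 88.3 CPM in the beta libraries, 57.3, 48.1 and 51.6 CPM in alpha and 33.0, 26.2 and 33.2 CPM in delta. The subsets formed 3 separate steps. Pde8a was 1.65-fold higher in beta than in alpha (log2 difference 0.72, SE 0.12, adjusted p = 0.000278), 2.80-fold higher in beta than in delta (1.48, SE 0.13, adjusted p = 9.84e-08) and 1.70-fold higher in alpha than in delta (0.76, SE 0.13, adjusted p = 0.000251). Pde8b had 3.98, 3.08 and 5.61 CPM in the beta libraries, 9.57, 15.2 and 6.07 CPM in alpha and 4.37, 1.81 and 3.85 CPM in delta. Alpha was highest, with alpha 3 close to beta 3. Pde8b was 2.43-fold lower in beta than in alpha (log2 difference -1.28, SE 0.41, adjusted p = 0.0274) and 3.05-fold higher in alpha than in delta (1.61, SE 0.41, adjusted p = 0.00837). The first of these was lost when beta 1, beta 2, alpha 1 or alpha 2 was left out (adjusted p of 0.0586 to 0.192), and the other without alpha 2 (adjusted p = 0.0752). Pde1c, a calcium- and calmodulin-dependent dual PDE, ran from 81.0 to 108 CPM in beta, 68.5 to 91.6 CPM in alpha and 101 to 121 CPM in delta and was lower in alpha than in delta (log2 difference -0.54, adjusted p = 0.00646, or 0.0833 with the length offset). Pde1b, at 0.847 to 4.63 CPM, passed no test. Pde6d, which encodes a carrier of prenylated proteins and no PDE catalytic domain, ran from 9.29 to 15.9 CPM and also passed none.

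**Figure D4:**
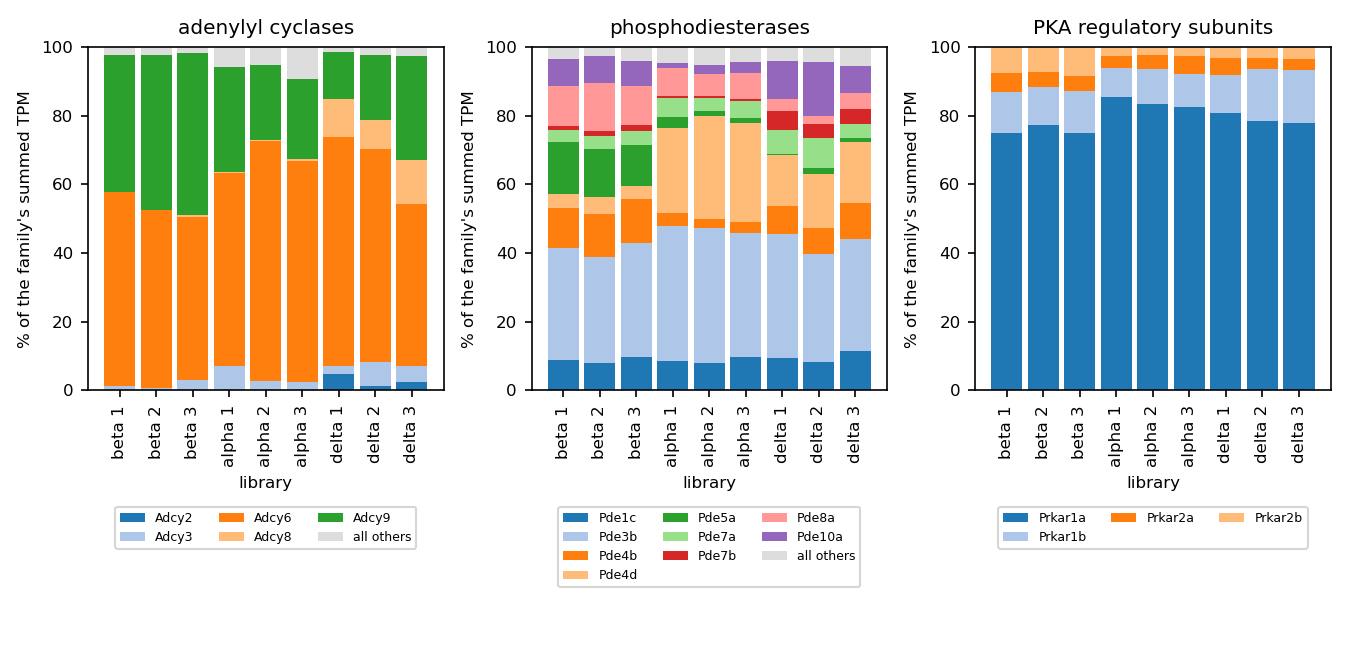
Share of each member in the summed TPM of its family, in percent, for the adenylyl cyclases, the phosphodiesterases and the PKA regulatory subunits in each library, with beta, alpha and delta from left to right and members under 4% in every library joined as all others. The Pde5a band is 12.0% to 15.1% in beta, the Pde4d band 24.9% to 30.2% in alpha, and Prkar2b shrinks to 2.38% to 3.58% outside beta.

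All 4 regulatory subunits of PKA were higher in beta than in alpha, and 3 of 4 were higher in beta than in delta, the other being Prkar1b. Over all genes, 14.8% and 15.4% were higher in beta in these comparisons, and the calls of Prkar1a depended on the processing, as given below. Between alpha and delta, 2 subunits were lower in alpha. The type II beta subunit Prkar2b, abundant in brain and fat tissue, had the largest differences of the 4 in both comparisons of beta. Prkar2b, at chr12:31958476-32061296, had 63.9, 63.2 and 72.5 CPM in the beta libraries, 16.5, 15.5 and 15.9 CPM in alpha and 22.4, 24.6 and 25.3 CPM in delta. Beta stood apart, and alpha lay just under delta. Prkar2b was 4.16-fold higher in beta than in alpha (log2 difference 2.06, SE 0.14, adjusted p = 6.57e-09) and 2.76-fold higher than in delta (1.46, SE 0.14, adjusted p = 2.76e-07), and both calls were kept in all 21 other ways of processing. It was 1.51-fold lower in alpha than in delta (adjusted p = 0.00535, or 0.058 with the length offset). Its share of regulatory subunit TPM was 7.22% to 8.38% in beta, 2.38% to 2.53% in alpha, with 3.24% to 3.58% in delta.

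Prkar1a, the type I alpha subunit whose CRE is printed above, had 596, 681 and 636 CPM in the beta libraries, 575, 521 and 517 CPM in alpha and 546, 534 and 531 CPM in delta. Beta was above the rest by a small margin. The 1.19-fold differences to alpha and delta (adjusted p = 0.0374 and 0.0317) were each lost when 1 of 5 libraries was left out. Without beta 2, beta 3, alpha 2, alpha 3 or delta 3 the adjusted p against alpha was 0.0522 to 0.212, and without beta 2, beta 3, alpha 2, delta 2 or delta 3 that against delta was 0.0526 to 0.188. With upper-quartile factors the adjusted p-values were 0.171 and 0.0971. In all, the call against alpha was lost under 13 and that against delta under 11 of the 21 alternatives. Prkar1a held 74.8% to 85.5% of regulatory subunit TPM in every library. Prkar1b was at 60.6 to 73.9 CPM in beta, 37.4 to 46.3 CPM in alpha and 55.7 to 75.7 CPM in delta, 1.60-fold higher in beta than in alpha (adjusted p = 0.00128) and 1.59-fold lower in alpha than in delta (adjusted p = 0.00165). Prkar2a was at 47.4 to 55.8 CPM in beta, 32.2 to 36.7 CPM in alpha and 22.8 to 34 CPM in delta, 1.51-fold higher in beta than in alpha (adjusted p = 0.00882, or 0.0756 with the length offset) and 1.91-fold higher than in delta (adjusted p = 0.000201).

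The catalytic subunit Prkacb had 548, 529 and 458 CPM in the beta libraries, 452, 379 and 349.9 CPM in alpha and 419, 370.5 and 342 CPM in delta. Beta 3 and alpha 1 almost met. Prkacb was 1.30-fold higher in beta than in alpha (log2 difference 0.38, SE 0.11, adjusted p = 0.0151) and 1.36-fold higher than in delta (0.44, SE 0.11, adjusted p = 0.00487). The call against alpha was lost without beta 1, beta 2, alpha 2 or alpha 3 (adjusted p of 0.0766 to 0.0906), and with the length offset the adjusted p-values were 0.102 and 0.065. Prkaca, the other catalytic subunit, ran from 43.6 to 66.3 CPM and passed no test. Prkacb held 74.3% to 84.5% of catalytic subunit TPM. The ratio of regulatory to catalytic subunit TPM was 1.70 to 1.91 in beta, 1.56 to 1.86 in alpha, with 1.54 to 1.97 in delta, and these ranges overlapped.

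The PKI proteins are small inhibitors that bind the free catalytic subunit. Pkia led in beta and delta per length, and Pkig led on average in alpha. Pkia had 53.9, 51.8 and 58.9 CPM in the beta libraries, 41.4, 39.8 and 39.4 CPM in alpha and 87.3, 75.0 and 67.7 CPM in delta. The order delta, beta, alpha held in all libraries. It was 1.36-fold higher in beta than in alpha (log2 difference 0.45, SE 0.12, adjusted p = 0.0122, or 0.0656 without beta 3), 1.40-fold lower in beta than in delta (-0.48, SE 0.12, adjusted p = 0.00594) and 1.91-fold lower in alpha than in delta (-0.93, SE 0.12, adjusted p = 2.04e-05).

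Pkib had 14.8, 12.9 and 14.9 CPM in the beta libraries, 8.54, 8.56 and 6.35 CPM in alpha and 4.78, 4.08 and 4.63 CPM in delta. Its order was the reverse for beta and delta. Pkib was 3.14-fold higher in beta than in delta (log2 difference 1.65, SE 0.26, adjusted p = 0.000111). It was 1.81-fold higher in beta than in alpha (adjusted p = 0.0181), which was lost without beta 1, beta 3 or alpha 3 (adjusted p of 0.0739 to 0.0788). The 1.74-fold difference between alpha and delta (adjusted p = 0.0381) was lost without any of 7 libraries, all but alpha 3 and delta 1 (adjusted p of 0.0599 to 0.114). Pkig had 6.42, 9.94 and 8.75 CPM in the beta libraries, 7.75, 10.2 and 10.6 CPM in alpha and 7.65, 12.9 and 14.3 CPM in delta. Its ranges overlapped and it passed no test.

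The Epac proteins differed in kind. Rapgef4, which encodes Epac2, the isoform of endocrine cells and neurons, held all of the Epac TPM in beta (100%), 95.7% to 99.0% in alpha, with 86.9% to 92.7% in delta. Rapgef3, which encodes Epac1, took the rest. Rapgef3, at chr15:97744770-97767972, had 0, 0 and 0 CPM in the beta libraries, 2.16, 2.14 and 4.51 CPM in alpha and 19.3, 27.2 and 16.4 CPM in delta. It had 0 counts in beta, 68 in alpha and 449 in delta over 3 libraries each, so that beta was at least 18.7-fold lower than alpha and at least 136-fold lower than delta, with beta counted at 3 counts over the subset. Alpha was 7.17-fold lower than delta (log2 difference -2.84, SE 0.37, adjusted p = 2.87e-05). Epac1 is also known from endothelial cells. The 6 endothelial markers summed to 1.02 to 1.68 CPM of the whole library in beta, 1.05 to 1.29 in alpha, with 3.01 to 5.15 in delta, where Cdh5, Kdr and Plvap were at 0. The part of endothelial cells in the difference of Rapgef3 was not tested.

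Rapgef4 had 162, 183 and 160.1 CPM in the beta libraries, 134, 139 and 125 CPM in alpha and 148, 106 and 122 CPM in delta. Beta was above both others, which overlapped. The count was 1.27-fold higher in beta than in alpha (log2 difference 0.34, SE 0.11, adjusted p = 0.034) and 1.34-fold higher than in delta (0.42, SE 0.11, adjusted p = 0.0089). The call against alpha was lost when any beta or alpha library was left out (adjusted p of 0.0542 to 0.187) and that against delta without beta 2 (adjusted p = 0.0715). With the length offset the log2 differences were 0.12 against alpha and -0.05 against delta (adjusted p = 0.664 and 0.871), so the direction against delta turned. The length that RSEM gives a gene is the mean over its transcripts, weighted by their estimated abundance. For Rapgef4 it was 2094, 2326 and 2266 bases in the beta libraries, 1942, 1918 and 1995 bases in alpha and 1549, 1775 and 1642 bases in delta. These ranges did not overlap in any comparison, with beta longest and delta shortest. The gene table lists 11 Rapgef4 transcripts, from 438 to 4181 bases in GENCODE M21. The length comes from RSEM's assignment of short reads to transcripts, and no transcript values were used here.

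**Figure D5:**
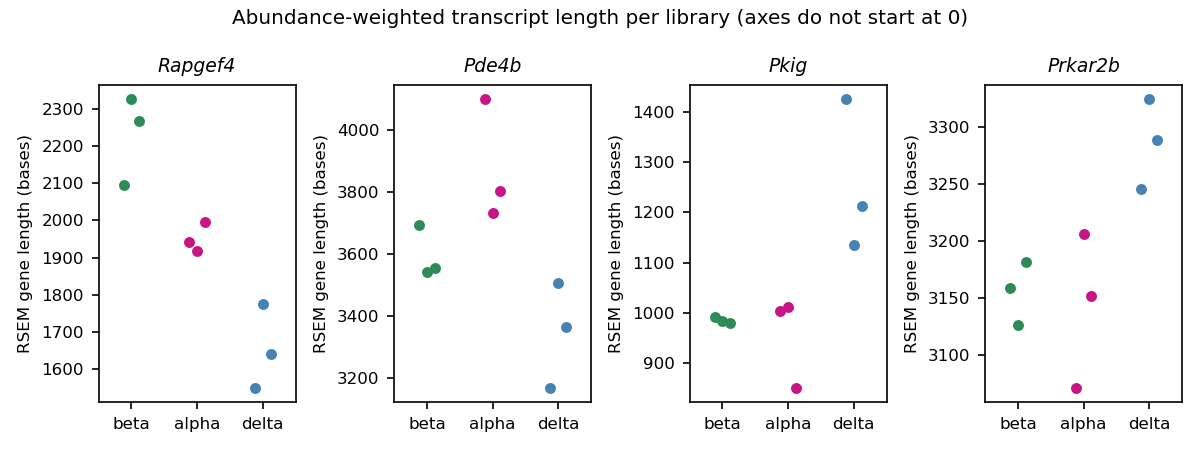
RSEM gene length in bases, the mean transcript length weighted by estimated abundance, of 4 members in each library, for beta, alpha and delta from left to right; the axes do not start at 0. Rapgef4 and Pde4b separate all 3 subsets, and Pkig and Prkar2b are longer in the delta libraries.

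The same length was compared in the 18 members with 50 or more counts in every library and a length that varied. It did not overlap for 2 members between beta and alpha, 6 between beta and delta and 4 between alpha and delta, and among 7361 genes chosen the same way this held for 12.5%, 13.2% and 11.8%. Both members of the first comparison were Rapgef4 and Pde4b. Pde4b, which has long and short forms, had 3694, 3542 and 3555 bases in the beta libraries, 4101, 3735 and 3804 bases in alpha and 3168, 3506 and 3366 bases in delta. Alpha was longest and delta shortest. Pkig ran from 979 to 991 bases in beta, 851 to 1011 bases in alpha and 1134 to 1425 bases in delta. Prkar2b ran from 3126 to 3181 bases in beta, 3071 to 3206 bases in alpha and 3245 to 3325 bases in delta. Between beta and delta Pde7a was longer in beta (3905 to 4220 bases against 1895 to 3646 bases) and Prkaca was shorter (1841 to 1970 bases against 2034 to 2169 bases). These lengths were not tested.

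The ratio of summed PDE TPM to summed cyclase TPM was 4.22 to 5.56 in beta, 3.79 to 4.71 in alpha, with 3.55 to 4.18 in delta. Beta lay above delta without overlap and overlapped alpha.

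The 11 members that did not pass the filter were Adcy4, Adcy10, Pde1a, Pde2a, Pde6a, Pde6b, Pde6c, Pde9a, Pde11a, Popdc2 and Popdc3. Adcy4 had 0 counts in all 9 libraries, and so did Bves, which encodes the third Popeye protein under another symbol. Of the Popeye genes, whose proteins bind cAMP in muscle membranes, Popdc2 had 2, 2 and 0 counts in the alpha libraries and 0 in all others, and Popdc3 had 5 counts in delta 1 and 0 elsewhere. Pde9a, a cGMP-specific PDE, had 0 counts in beta, 21 in alpha and 0 in delta, so that alpha was at least 5.79-fold above beta and 6.39-fold above delta. Pde6c, the cone photoreceptor PDE, had 0 counts in beta, 20 in alpha and 63 in delta, and beta was at least 19.0-fold below delta. Pde2a, a PDE stimulated by cGMP, had 0 counts in beta, 11 in alpha and 16 in delta. Pde1a had 3 counts in beta, 47 in alpha and 7 in delta, with a ratio of alpha to beta of 13.0 (95% exact interval 4.17 to 65.1). The intervals and floors cover counting error only, and these genes were not tested.

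The rest of the pathway was read from gene lists, with 7 G protein alpha subunits tested. Of these, 3 were higher and 3 lower in beta than in alpha, 2 were higher and 2 lower in beta than in delta, and 2 were higher and 2 lower in alpha than in delta. These are 85.7%, 57.1% and 57.1% of the 7, against 26.6%, 30.6% and 24.3% of all genes. Gnas, whose locus encodes Gs alpha and overlapping transcripts, had 465, 498 and 452 CPM in the beta libraries, 2950.4, 3181 and 2873 CPM in alpha and 1535, 1567 and 1603 CPM in delta. No ranges overlapped, and beta was lower than alpha (log2 difference -2.67, SE 0.09, adjusted p = 6.60e-13) and than delta (-1.73, SE 0.08, adjusted p = 5.36e-11). Of the inhibitory subunits, Gnai1 averaged 25.3 CPM in beta, 163 CPM in alpha and 16.7 CPM in delta. It was lower in beta than in alpha (adjusted p = 2.72e-06) and higher in alpha than in delta (adjusted p = 6.91e-07). Gnai2 averaged 277 CPM in beta, 127 CPM in alpha and 175 CPM in delta and was higher in beta than in both (adjusted p = 3.51e-08 and 1.51e-05), as was Gnai3, at 146 CPM in beta, 80.2 CPM in alpha and 65.9 CPM in delta (adjusted p = 0.000206 and 1.02e-05).

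A-kinase anchoring proteins (AKAPs) hold PKA near its substrates, and 11 of 15 listed were tested. Of these, 3 were higher and 1 lower in beta than in alpha, 4 were higher and 2 lower in beta than in delta, and 1 was higher, with 3 lower, in alpha than in delta. These are 36.4%, 54.5% and 36.4% of the 11, against 26.6%, 30.6% and 24.3% of all genes, so that the first and the last were close to the share over all genes. Akap6, which anchors type II PKA, averaged 46.7 CPM in beta, 6.30 CPM in alpha and 13.3 CPM in delta, and stood higher in beta than in alpha (log2 difference 2.89, adjusted p = 1.57e-08) and than in delta (1.81, adjusted p = 1.97e-06). Akap12 averaged 0.932 CPM in beta, 31.3 CPM in alpha and 2.46 CPM in delta and was lower in beta than in alpha (-5.00, adjusted p = 3.93e-06). Akap13 averaged 356 CPM in beta, 152 CPM in alpha and 200.3 CPM in delta and was higher in beta than in both (adjusted p = 8.25e-08 and 7.13e-06).

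In the parallel cGMP pathway, 8 of 13 matched genes were tested. Of these, 3 were higher and 4 lower in beta than in alpha, 3 were higher and 3 lower in beta than in delta, and 1 was higher and 4 were lower in alpha than in delta. These are 87.5%, 75% and 62.5% of the 8, against 26.6%, 30.6% and 24.3% of all genes. Beside Pde5a, the receptor guanylyl cyclases Npr1, for atrial natriuretic peptide, and Gucy2c, for guanylin, were higher in beta than in alpha (log2 difference 4.05 and 3.35, adjusted p = 1.93e-06 and 6.27e-07). Npr1 averaged 16.1 CPM in beta, 0.944 CPM in alpha and 3.64 CPM in delta, and Gucy2c averaged 26.3 CPM in beta, 2.61 CPM in alpha and 12.6 CPM in delta. Npr2, the receptor for C-type natriuretic peptide, averaged 6.94 CPM in beta, 30.9 CPM in alpha and 33.5 CPM in delta and was lower in beta than in both (adjusted p = 4.23e-07 and 1.93e-07). The soluble guanylyl cyclase subunit Gucy1a1, which responds to nitric oxide, averaged 1.49 CPM in beta, 2.20 CPM in alpha and 14.2 CPM in delta, and was lower than in delta in both beta and alpha (adjusted p = 2.19e-05 and 0.00012). The cGMP-dependent kinase Prkg1 averaged 3.21 CPM in beta, 24.5 CPM in alpha and 2.80 CPM in delta, lower in beta than in alpha and higher in alpha than in delta (adjusted p = 0.000119 and 7.63e-05).

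Hcn4, a channel that binds cyclic nucleotides, averaged 26.7 CPM in beta, 3.14 CPM in alpha and 23.1 CPM in delta, higher in beta than in alpha and lower in alpha than in delta (adjusted p = 9.15e-08 and 2.69e-07). Abcc4, a transporter that exports cAMP, averaged 70.7 CPM in beta, 17.5 CPM in alpha and 60.5 CPM in delta, higher in beta than in alpha and lower in alpha than in delta (adjusted p = 6.00e-09 and 3.02e-08).

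CREB and its targets stand at the end of the pathway. Of 8 CREB-related factors and coactivators, 1 was higher and 1 lower in beta than in alpha, 1 was higher and 1 lower in beta than in delta, and 2 were higher in alpha than in delta. Of 12 tested textbook CREB targets, 2 were higher and 1 lower in beta than in alpha, 1 was higher and 1 lower in beta than in delta, and 2 were higher and 2 lower in alpha than in delta. These are 25% of the 8 factors in each comparison, and 25%, 16.7% and 33.3% of the 12 targets. Over all genes the shares were 26.6%, 30.6% and 24.3%, so both lists were near or below the share over all genes. The genes named next are single genes and no result about the lists. Nr4a2, an immediate early nuclear receptor, averaged 18.3 CPM in beta, 14.9 CPM in alpha and 2.64 CPM in delta and was higher than in delta in both beta and alpha (log2 difference 2.78 and 2.48, adjusted p = 0.000284 and 0.000974). Sik1, a CREB-induced kinase, averaged 20.9 CPM in beta, 10.1 CPM in alpha and 21.5 CPM in delta and was higher in beta than in alpha and lower in alpha than in delta (adjusted p = 0.00591 and 0.0049). The target Ppargc1a ran the other way, averaging 6.89 CPM in beta, 18.8 CPM in alpha and 9.03 CPM in delta. It was lower in beta than in alpha and higher in alpha than in delta (adjusted p = 0.000296 and 0.0042). Egr1 was lower in beta than in delta (adjusted p = 0.025). Fos had 333, 144 and 121 CPM in the beta libraries, 319, 109 and 74.9 CPM in alpha and 408, 131 and 126 CPM in delta. Library 1 was the highest in each subset, and Fos passed no test.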

How the data were processed

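RNA of 9 libraries of sorted mouse islet cells was analysed from 1 deposited RSEM gene table per library. The submitters' processing notes name the genome build GRCm38.p6, the aligner STAR (2.5.2b), RSEM without a version, DESeq2 (1.22.1) and R (3.5.1), per the labels. Per the file headers the tables hold expected counts, TPM and a length and effective length per gene. RSEM divides reads shared by several genes among them, and per the labels' protocols the libraries were strand-specific. The deposited normalised table was not used.

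Expected counts, as deposited by the authors, were rounded to whole numbers, filtered with filterByExpr, which kept 15896 genes, scaled by TMM and fitted in edgeR 4.0.16 under R 4.3.3 by a robust quasi-likelihood model with 1 coefficient per subset over all 9 libraries. Residual degrees of freedom were 6, and the biological coefficient of variation common to all genes was 0.212. Tests were 2-sided with Benjamini-Hochberg adjustment over all tested genes. CPM serves comparisons between subsets. TPM, as deposited by the authors, is per length and serves comparisons between genes and shares within a family. All 55536 gene identifiers matched GENCODE M21. The code was tested on simulated data. DESeq2 1.42.0 and limma 3.58.1 served as alternatives, the last on log2 of the deposited TPM plus 1 or plus 0.1.

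Every library value is given for members called with a log2 fold change of 1 or more in size and at least 1 TPM on average in the highest subset, and for the most abundant member of each family in each subset. Up to 3 genes with the smallest p per list and comparison were named from the other lists, and Adcy1, Adcy2, the members that did not pass the filter, Fos and Bves were added after their values were seen. The members and lists were chosen with earlier results of these data known. Symbols listed under older names were left out where they did not match. Some genes that the naming rule took are not reported here.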

Additional observations from a re-analysis of the deposited data

How the results depend on the processing

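The tests above called 4231 genes and 23 members between beta and alpha, 4869 and 21 between beta and delta, and 3868 and 17 between alpha and delta, with 2209 genes and 13 members highest or lowest in 1 subset. With limma on log2(TPM + 1), these were 1765 genes and 8 members (4 higher and 4 lower in beta), 2446 and 10, 1807 and 10, and 1274 and 8. With log2(TPM + 0.1), they were 1819 and 9, 2480 and 9, and 1782 and 10 in the 3 comparisons. The offset for effective length left 14 members between beta and alpha, and turned Rapgef4 between beta and delta to -0.046 (adjusted p = 0.871). The coactivator Ep300, lower in beta than in delta, turned to 0.0688 and 0.0714 on the TPM scales (adjusted p = 0.907 and 0.905). Without beta 2, delta 3 and alpha 1 together, an alternative chosen after seeing the data, 2538 genes and 14 members were called between beta and alpha and 2351 genes between alpha and delta. The smaller fit has fewer libraries, and for the other changes the cause was not tested. Upper-quartile scaling moved the split of genes between beta and alpha to 1959 higher and 2348 lower, from 2345 higher and 1886 lower, and the median log2 fold change of all genes to -0.10; the TPM scales moved that median by up to 0.23, between alpha and delta.

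Leaving out 1 library at a time, the members called numbered 18 to 23 between beta and alpha, 18 to 22 between beta and delta, 15 to 18 between alpha and delta, and 13 to 15 highest or lowest in 1 subset. With a replicate block, 23, 22 and 17 members were called, from 4625 genes between beta and alpha and 5241 between beta and delta. The main fit did not treat the numbers as a pairing, since the labels do not say what a replicate number marks. Libraries of the same number had deviations that correlated at 0.00085 to 0.112. All 9 such correlations were positive. Deviations were taken from the mean of each subset, so positive values here tend to make those between libraries of different number negative. Of those 18, 15 were negative. In 16 of 18 cases a library correlated best with the one of its own number in another subset. These counts largely follow from the 9 values and are no separate evidence. Whether libraries of the same number shared a source was not tested. Of the 61 called results for members, 26 were kept under each of the 21 alternatives that tested them. The other 35 were lost under 1 or more, mostly on the TPM scales. The stricter filter on low counts, 1 of these alternatives, tested only 27 of the 34 members. Of the called members it left out Adcy2, Adcy5, Pde4c and Pde8b, so their calls were not checked there. Members with few counts, such as Adcy1, Adcy2 and Rapgef3 in beta, are limited by depth.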
